A study of Mus musculus with 8 samples.

Results

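The 10 genes described here encode subunits of BAF (also called mammalian SWI/SNF), a complex that uses ATP to move or evict nucleosomes. They were chosen by name, as the rows of the expression table called Smarca4, Smarca2, Smarcc1, Smarcc2, Smarcd1, Smarcd2, Smarcd3, Arid1a, Arid1b and Smarcb1, and are 10 of the 18094 genes in the table. RNA-seq was made from mESCs on day 0 and from EBs on day 4, from WT cells and from CTCF-K20R cells, with 2 libraries for each of the 4 groups. The cells were the mouse embryonic stem cell line E14Tg2A, grown on mitomycin C-inactivated embryo fibroblasts with LIF and 2i (inhibitors that hold the undifferentiated state). EBs were aggregated in hanging drops without LIF, which starts differentiation. In the CTCF-K20R cells, lysine 20 of the architectural protein CTCF was replaced with arginine by CRISPR/Cas9 and a donor vector, and targeted colonies were picked after drug selection, so that the mutation and any difference between a picked colony and its parent line cannot be told apart.

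Each BAF complex of the canonical form holds a single ATPase, either Smarca4 (BRG1) or Smarca2 (BRM). It sits on a core of Smarcc1 (BAF155) and Smarcc2 (BAF170), with Smarcb1 (BAF47) and a member of the Smarcd (BAF60) family. Arid1a or Arid1b defines the canonical form of the complex, while PBAF and non-canonical BAF carry other subunits in their place. In mouse ES cells the complex is known to be built mostly on Smarca4 and Smarcc1, and it exchanges subunits for their paralogs as cells differentiate. Smarcd3 (BAF60c) is known for its role in heart development.

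Normalized counts totalled 19412659 to 21311513 per library, and 3 reads, taken as the limit of detection, stood at 2.44 to 3.45 normalized counts, which covers counting error only. The 2 WT libraries of a day were closer to each other than the sampling noise allows (mean squared difference 0.314 and 0.278 of the noise on day 0 and day 4, against 4.00 and 4.36 in the CTCF-K20R pairs), so each WT pair was counted as 1 sample and 6 samples entered the test. The p-values therefore rest on the spread between CTCF-K20R libraries, which the study's text calls biological replicates from independent experiments, without saying whether they came from separate cultures or colonies. Where they did not, this spread is technical. Ctcf itself had 3971 and 3938 normalized counts in WT mESCs, 4610 and 4408 in CTCF-K20R mESCs, 4241 and 4256 in WT EBs and 4926 and 4771 in CTCF-K20R EBs (log2 fold change 0.19 on both days, limma adjusted p 0.0550 on day 0 and 0.0268 on day 4). Its 20 nearest genes on chromosome 8 had medians of 0.46 on day 0 and 0.59 on day 4, and a point mutation cannot be checked from such values. The 8 pluripotency markers looked at, such as Pou5f1 and Nanog, summed to 109552 to 112725 normalized counts in the day 0 libraries, as the label mESC implies. In EBs they summed to 15612 and 15721 in WT and to 32581 and 31793 in CTCF-K20R, and 9 early mesoderm markers, such as T and Mesp1, to 43238 and 43384 in WT and to 2578 and 2449 in CTCF-K20R. Most of the pluripotency sum in EBs was Pou5f1, at 12595 and 12696 in WT and 21940 and 21590 in CTCF-K20R. In such bulk samples, fewer cells of a type and less RNA per cell cannot be told apart.

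All 10 genes passed the filter of a mean of at least 10 normalized counts, and none of their values was at the limit of detection. On day 4, Smarcd1 was higher in CTCF-K20R EBs and its paralogs Smarcd2 and Smarcd3 were lower. The promoters of Smarcd1 and Smarcd3, the paralogs with the largest rise and the largest fall among the members in EBs, are printed here as RefSeq gives them (GRCm38.p6, 250 bases before to 50 after an annotated start), with each CG dinucleotide in capitals. The first lies at chr15:99702037-99702336 on the plus strand and holds 35 CG, and the second at chr5:24601953-24602252 on the minus strand and holds 40 CG.
Smarcd1: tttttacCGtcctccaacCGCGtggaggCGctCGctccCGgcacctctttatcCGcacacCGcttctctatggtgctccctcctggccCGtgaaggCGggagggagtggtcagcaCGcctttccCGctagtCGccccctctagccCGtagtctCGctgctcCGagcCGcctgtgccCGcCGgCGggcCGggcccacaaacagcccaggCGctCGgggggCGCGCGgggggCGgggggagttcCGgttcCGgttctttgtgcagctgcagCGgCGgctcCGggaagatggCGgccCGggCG
Smarcd3: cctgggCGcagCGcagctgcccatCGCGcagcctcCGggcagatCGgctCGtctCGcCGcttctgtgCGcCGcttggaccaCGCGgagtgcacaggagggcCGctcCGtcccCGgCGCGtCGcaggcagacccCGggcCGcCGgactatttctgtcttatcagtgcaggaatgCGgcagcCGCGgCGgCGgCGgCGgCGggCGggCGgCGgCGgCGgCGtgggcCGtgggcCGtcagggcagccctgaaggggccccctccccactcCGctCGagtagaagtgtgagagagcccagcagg
Promoters were found for all 10 members, 11 in all, since Arid1a has 2. They held 4 (Smarcd2) to 48 (Smarcc2) CG, against a median of 7 over all 32851 promoters of the same length, so that all but that of Smarcd2 were CG-rich. The windows of Smarcd2 and Smarcc1 lie inside their genes, so these counts describe an internal start and not every start of the gene. The CTCF core consensus, searched on both strands as a strict pattern, was in 0 of the 11 and in 183 (0.557%) of all promoters. At so low a rate, 0 of 11 was likely in any case. It says nothing of CTCF binding, whether in these windows or elsewhere. In GENCODE vM21 (GRCm38), Smarcd1 spans 99702129 to 99713991 of chromosome 15 and Smarcd3 spans 24590818 to 24624411 of chromosome 5. The window printed for Smarcd3, on the minus strand, thus lies well inside the gene and not at its upstream end of 24624411. It belongs to an internal annotated start, and which start these cells use was not tested. Smarcd1 overlaps Gm17349, Gm34939 and Gm17241, and Smarcd3 overlaps Chpf2 and Mir671, all on the opposite strand, and the use of strand in the counting is not given in the sources used here, so reads of such partners cannot be told apart from theirs.

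**Figure D1:**
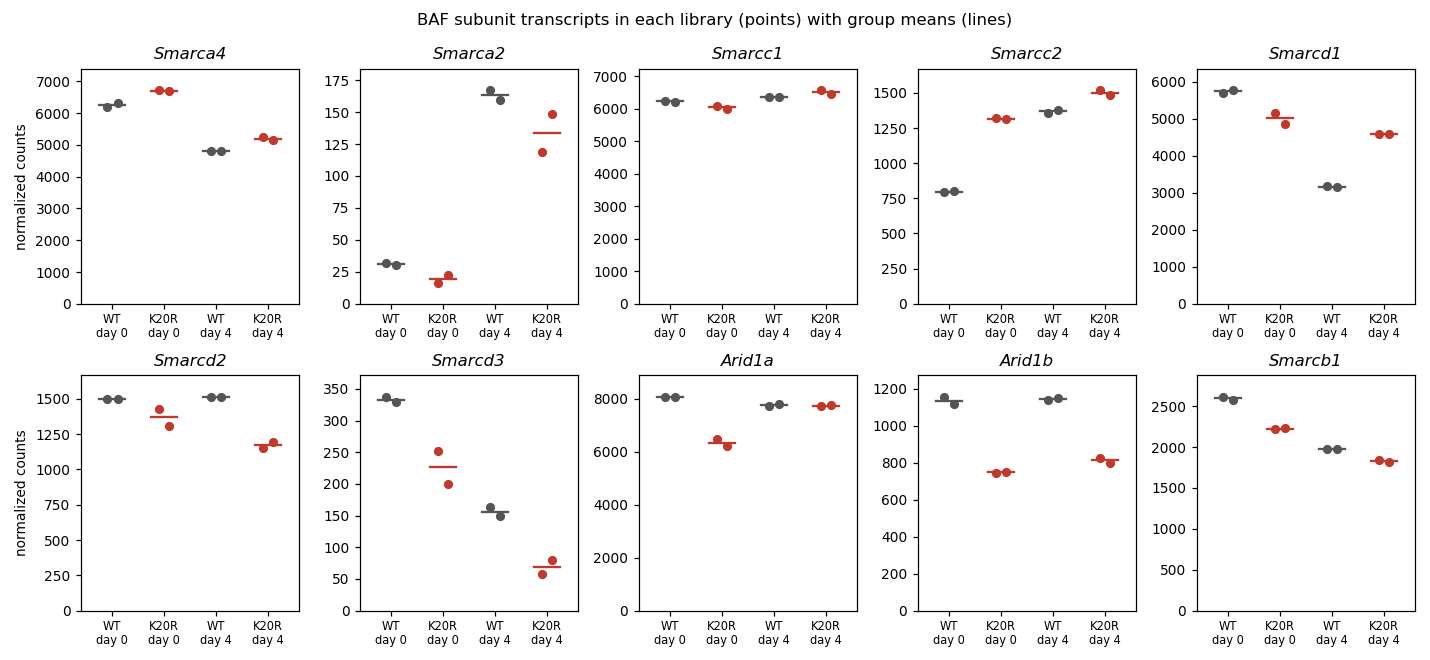
Normalized counts (y axis, from 0, one scale per gene) of the 10 BAF subunits in each library (points), with group means (lines), for WT (grey) and CTCF-K20R (red) on day 0 and day 4. Smarcd1 stands between WT mESCs and WT EBs in CTCF-K20R EBs, at 4587 and 4598, and Smarcd3 is lowest there, at 58.3 and 80.6.

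The levels of different genes were compared per kilobase of the longest coding transcript. In WT mESCs, Smarcd1 was highest, at a mean of 1737 normalized counts per kilobase, followed by Smarcb1 at 1564, Smarcc1 at 1080, Arid1a at 985 and Smarca4 at 981. Smarcd2 followed at 545, Smarcd3 at 192, Smarcc2 at 175 and Arid1b at 100.3, and Smarca2 was lowest at 5.22. Arid1a and Smarca4 did not differ beyond their libraries, which lay between 973 and 989 for Smarca4. In EBs of both genotypes Smarcd3 stood below Smarcc2 and Arid1b, at 90.05 against 299.8 and 101.0 in WT and at 40.0 against 329 and 71.8 in CTCF-K20R. Smarca2 was lowest in both, at 27.6 and 22.6.

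The comparison of CTCF-K20R with WT EBs asks which subunits differ once differentiation has started. Smarcd1 was higher and Smarcd2, Smarcd3 and Arid1b were lower in CTCF-K20R than in WT EBs, while both ATPases, both Smarcc subunits, Arid1a and Smarcb1 did not pass the test. In the fit over all 15767 genes tested (limma, Benjamini-Hochberg adjusted p under 0.05), 1 of the 10 members was called higher and 3 lower, against 21.5% of all genes higher and 18.6% lower. With a change of more than 2-fold asked as well, 0 were higher and 1, Smarcd3, was lower, against 6.89% and 8.65% of all genes. At an unadjusted p under 0.05, 5 members passed. The share of members called thus stood near that of all genes, and their median log2 fold change was -0.06 against 0.01 over all genes tested. Values of CTCF-K20R lay wholly above WT for 4 members, wholly below for 5 and overlapped for Arid1a alone, and the groups did not overlap for 85% of all genes tested. With every library scaled to the same total, the median of all genes moved from 0.01 to -0.10 and the share of higher calls among all calls from 53.6% to 41.1%, and against that shift Smarcc1 went from 0.03 to -0.07.

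Smarcd1 (BAF60a), the main BAF60 subunit of these cells by level, had 3173 and 3153 normalized counts in WT EBs against 4587 and 4598 in CTCF-K20R EBs. The mutant libraries lay well above both WT libraries. The log2 fold change was 0.54 ± 0.05 (SE), with a limma adjusted p of 0.000912, and it kept its call in each of 18 other settings tried, with adjusted p between 6.78e-06 and 0.0337.

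Smarcd3 had 163 and 149 normalized counts in WT EBs against 58.3 and 80.6 in CTCF-K20R EBs. The groups did not overlap, but the mutant libraries differed more from each other than the WT libraries did. Its log2 fold change was -1.18 ± 0.27 (SE), or 2.26-fold lower, with a limma adjusted p of 0.0200. The call was lost when either CTCF-K20R EB library was left out (-0.95 and adjusted p = 0.106 without the first, -1.41 and 0.0609 without the second) and when no filter on low values was applied (0.0509), over a range of 0.000876 to 0.106 in all settings.

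Smarcd2 (BAF60b), known for its role in granulocyte development, had 1508 and 1513 normalized counts in WT EBs against 1151 and 1194 in CTCF-K20R EBs, again without overlap. Its log2 fold change was -0.37 ± 0.08 (SE), with a limma adjusted p of 0.0147, and this call was lost without the first (adjusted p = 0.0995) or the second (0.0804) CTCF-K20R EB library, over a range of 0.000319 to 0.0995. Among all genes, calls on day 4 went from 6329 to 3356 and 3489 without these libraries.

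Of the ARID subunits, which mark canonical BAF, Arid1b had 1137 and 1152 normalized counts in WT EBs against 826 and 799 in CTCF-K20R EBs. Both mutant libraries were lower, and the log2 fold change was -0.49 ± 0.07 (SE), with a limma adjusted p of 0.00441 and a range of 2.33e-05 to 0.0399 in other settings. Arid1a had 7729 and 7800 in WT and 7719 and 7759 in CTCF-K20R EBs. Its groups overlapped, and the 95% interval of its log2 fold change ran from -0.11 to 0.10.

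The catalytic subunits differed little. Smarca4 had 4793 and 4794 normalized counts in WT EBs against 5241 and 5159 in CTCF-K20R EBs. That is a log2 fold change of 0.12 ± 0.04 (SE) at a limma adjusted p of 0.0509, just short of the threshold, and -0.01 under quantile normalization. Smarca2 had 167 and 160 in WT and 119 and 149 in CTCF-K20R EBs, and its interval was wide, from -1.13 to 0.54. For the core subunits the log2 fold changes were 0.03 (Smarcc1; 95% interval -0.06 to 0.13, and -0.11 under quantile normalization), 0.14 (Smarcc2; -0.02 to 0.29) and -0.11 (Smarcb1; -0.24 to 0.01). None of these 3 passed.

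**Figure D2:**
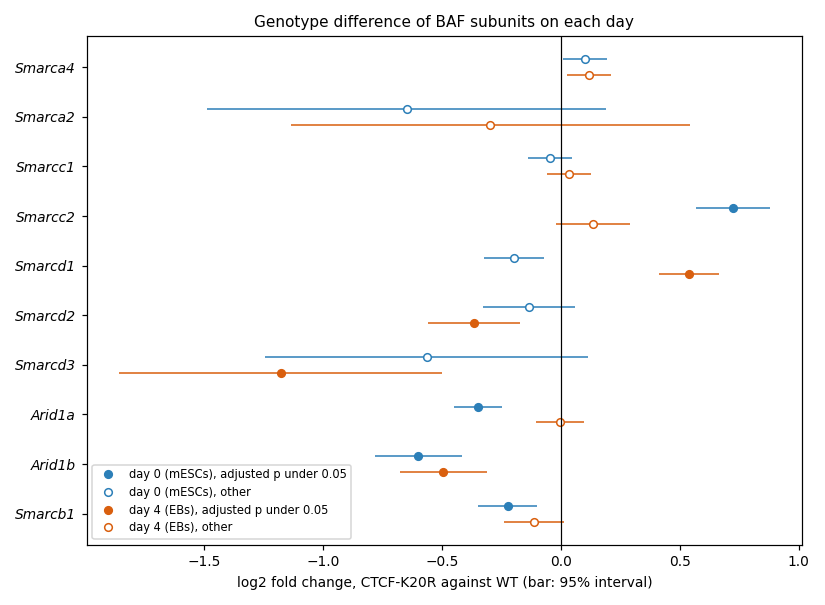
Log2 fold change of CTCF-K20R against WT (x axis, bars for 95% intervals) of each member on day 0 (blue) and day 4 (orange), with filled points for a limma adjusted p under 0.05. Smarcd1 is filled on day 4 at 0.54 and Smarcc2 on day 0 at 0.72, while Arid1b is filled on both days at -0.60 and -0.49.

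These changes stood in libraries that also differed in markers of cell types. Of the 9 early mesoderm markers, 9 were called lower in CTCF-K20R EBs, as were 5 of 7 cardiac and 4 of 4 endoderm markers tested. Among the cardiac markers, Nkx2-5 was not called, and Tbx5 was higher, at 0.94 on the log2 scale, without a call (limma adjusted p = 0.0553). Of 8 pluripotency markers, 7 were called higher and 1, Klf4, lower (-1.48 on the log2 scale). Of 4 neural ectoderm markers tested, 3 were called higher, and Zic1 was not called. Over all genes tested, 21.5% were called higher and 18.6% lower. Cardiac markers summed to 2412 and 2419 normalized counts in WT EBs and to 314 and 251 in CTCF-K20R EBs, where Tnnt2 and Hand2 were at or under the limit of detection. Endoderm markers summed to 13237 and 13234 in WT and 108 and 104 in CTCF-K20R EBs, neural ectoderm markers to 1967 and 1928 in WT and 2664 and 2704 in CTCF-K20R EBs, and markers of the feeder fibroblasts to 946 and 924 in WT and 895 and 850 in CTCF-K20R EBs. Most of the neural ectoderm sum was Nes, at 1921 and 1884 in WT and 2504 and 2539 in CTCF-K20R EBs. In WT EBs, most of the cardiac sum was Gata4, at 1476 and 1467, and most of the endoderm sum was Cer1, at 7907 and 7871. Of 6 feeder markers tested, 2 were called higher (Thy1 and Col3a1) and 2 lower (Fbn1 and Postn). The part of all these markers in the subunit changes was not tested.

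The same comparison in mESCs asks what differed before differentiation. Smarcc2 was higher in CTCF-K20R mESCs, and Arid1a, Arid1b and Smarcb1 were lower, and Arid1b was called lower on both days. In all, 1 member was called higher and 3 lower, against 7.83% and 7.57% of all genes tested. Past 2-fold, 0 were higher and 0 lower by the limma test, against 1.19% and 2.6% of all genes, while 6 passed an unadjusted p under 0.05 at any size. Their median log2 fold change was -0.21 against -0.01 over all genes. CTCF-K20R lay wholly above WT for 2 members and wholly below for 8, and groups did not overlap for 77.9% of all genes.

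Smarcc2, which is known to take the place of part of Smarcc1 as ES cells differentiate, had 792 and 804 normalized counts in WT mESCs and 1324 and 1311 in CTCF-K20R mESCs. Both mutant mESC libraries were thus close to the WT EB libraries, at 1357 and 1379. Its log2 fold change was 0.72 ± 0.06 (SE), with a limma adjusted p of 0.00269.

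Arid1b had 1156 and 1115 normalized counts in WT mESCs and 746 and 752 in CTCF-K20R mESCs, a log2 fold change of -0.60 ± 0.07 (SE) with a limma adjusted p of 0.00732. Arid1a had 8065 and 8068 in WT and 6477 and 6207 in CTCF-K20R mESCs, at -0.35 ± 0.04 (SE) and 0.00628. Smarcb1 had 2614 and 2579 in WT and 2216 and 2232 in CTCF-K20R mESCs, at -0.22 ± 0.05 (SE) and 0.0391. In these 3 genes each mutant library lay below both WT libraries.

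Leaving out either CTCF-K20R EB library leaves 1 pair of libraries to set the spread, and 0 of the 15767 genes were then called on day 0 by limma, against 2429 with both, while 6 members still had an unadjusted p under 0.05. Without the first and without the second, the adjusted p was 0.0589 and 0.0590 for Smarcc2, 0.0692 and 0.0695 for Arid1b, 0.0785 and 0.0788 for Arid1a and 0.0982 and 0.0985 for Smarcb1. The 4 log2 fold changes stayed at 0.72, -0.60, -0.35 and -0.22, since these libraries do not enter them. Leaving out a CTCF-K20R mESC library took away the call of Smarcb1 (0.132 and 0.124), and 779 and 791 genes were then called in all. With the day 0 libraries alone, Smarcc2 was the member that kept its call. Over all settings the adjusted p ranged from 5.87e-06 to 0.0590 for Smarcc2, from 3.06e-05 to 0.0695 for Arid1b, from 3.95e-05 to 0.0788 for Arid1a and from 0.000262 to 0.132 for Smarcb1. The feeder fibroblast markers, of which Col3a1, Postn, Lum and Dcn were at or under the limit of detection in all day 0 libraries, summed to 550 and 540 normalized counts in WT and to 176 and 178 in CTCF-K20R mESCs. Most of each sum was Thy1, which other cells express too, at 465 and 459 in WT and 104 and 103 in CTCF-K20R mESCs, and it was the 1 marker called of 6 tested, while Col1a1 had 17.4 and 16.02 in WT and 34.3 and 32.2 in CTCF-K20R mESCs. The part of these markers in the changes was not tested.

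Among the members not called in mESCs, Smarcd1 had 5701 and 5784 normalized counts in WT and 5170 and 4857 in CTCF-K20R mESCs, at a log2 fold change of -0.20 ± 0.05 (SE) and a limma adjusted p of 0.0559. Smarcd3 had 337 and 329 in WT and 252 and 201 in CTCF-K20R mESCs, and Smarca2 had 31.6 and 30.2 in WT and 16.5 and 22.7 in CTCF-K20R mESCs. Their intervals were wide, from -1.24 to 0.12 for Smarcd3 and from -1.49 to 0.19 for Smarca2. Smarca4 at 0.10, Smarcc1 at -0.04 and Smarcd2 at -0.13 on the log2 scale also missed the threshold, with adjusted p of 0.126, 0.466 and 0.303 by limma.

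Whether the genotype difference itself changed between the days was tested as an interaction. It was called higher on day 4 for Smarcd1 and Arid1a and lower for Smarcc2, that is for 2 members upward and 1 downward, against 14.7% and 12% of all genes tested. For Smarcd1 the difference went from -0.20 on day 0 to 0.54 on day 4, an interaction of 0.73 ± 0.07 (SE) on the log2 scale with a limma adjusted p of 0.00196, in a range of 1.45e-05 to 0.05. For Smarcc2 it went from 0.72 to 0.14, an interaction of -0.59 ± 0.09 (SE) with an adjusted p of 0.00769. For Arid1a it went from -0.35 to 0.00, an interaction of 0.34 ± 0.06 (SE) with an adjusted p of 0.0106. Without the first or the second CTCF-K20R EB library the calls of Smarcc2 (adjusted p = 0.0521 and 0.0549, in a range of 3.67e-05 to 0.0549) and of Arid1a (0.0782 and 0.0795, in a range of 0.000117 to 0.0795) were lost, as calls among all genes went from 4200 to 1384 and 1355. The interaction of Arid1b was 0.11 and its 95% interval ran from -0.15 to 0.36, and that of Smarcd3 was -0.61, from -1.57 to 0.35, so a difference between days in Smarcd3 was not detectable with these libraries.

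The change from mESCs to EBs was then followed in each genotype. In WT cells each day counted as 1 sample, so these values have no replicate check and no test. Smarca2 rose most, from 31.6 and 30.2 to 167 and 160 normalized counts (2.36 on the log2 scale), and Smarcd3 fell most, from 337 and 329 to 163 and 149 (-1.09). These 2 were the members past 2-fold, 1 higher and 1 lower, against 18.9% and 16.3% of all genes tested. Smarcc2 was higher by 0.78 on the log2 scale, Smarcd1 lower by 0.86, and Smarca4 and Smarcb1 lower by 0.38 and 0.39. The log2 differences of Smarcc1 (0.03), Smarcd2 (0.01), Arid1a (-0.06) and Arid1b (0.01) were near 0.

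In CTCF-K20R cells, with 2 libraries a day, 4 members were called higher on day 4 and 5 lower, against 29.9% and 28.6% of all genes tested. Smarca2 rose from 16.5 and 22.7 to 119 and 149 normalized counts, a log2 fold change of 2.71 ± 0.27 (SE) with a limma adjusted p of 0.000552. Smarcd3 fell from 252 and 201 to 58.3 and 80.6, at -1.70 ± 0.22 (SE) and 0.00150. Smarca4 (-0.37), Smarcb1 (-0.28), Smarcd2 (-0.22) and Smarcd1 (-0.13) also fell, and Arid1a (0.29), Smarcc2 (0.19) and Smarcc1 (0.11) rose. The fall of Smarcd1 was -0.02 under quantile normalization, with an adjusted p of 0.751, and was also lost at equal totals (0.0838) and without a filter (0.0677), and that of Smarcd2 was lost under quantile normalization (0.0629). The 4 smallest of these changes (Smarcc1, Smarcc2, Smarcd1 and Smarcd2) were each lost when the first CTCF-K20R mESC library or either CTCF-K20R EB library was left out, with adjusted p between 0.0575 and 0.198. Without the second CTCF-K20R mESC library, the calls of Smarcc1 and Smarcc2 were lost as well. Smarca2, Smarcd3, Smarca4, Smarcb1 and Arid1a kept their calls in every setting in which they were tested. Arid1b was not called, at 0.12 and an adjusted p of 0.146.

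The balance between paralogs was compared within each library, which removes any factor shared by all genes of a library, though not the factors that the deposited values carry for single genes. Among the 3 BAF60 genes, and per kilobase, Smarcd1 made up 70.0% and 70.4% in WT mESCs, 70.2% and 71.3% in CTCF-K20R mESCs, 59.9% and 60.0% in WT EBs and 75.4% and 74.3% in CTCF-K20R EBs. The WT share thus stood lower in EBs than in mESCs, while the CTCF-K20R share stood higher. The share of Smarcd2 was 34.3% and 34.6% in WT EBs against 22.8% and 23.2% in CTCF-K20R EBs, and that of Smarcd3 was 5.88% and 5.40% against 1.83% and 2.48%.

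The log2 ratio of Smarcd1 to Smarcd3, per kilobase, was 3.40 for WT EBs. In CTCF-K20R EBs it was 5.11 ± 0.32 (SD, n = 2), which is 1.71 higher, and on day 0 this difference was 0.37. The log2 ratio of Smarcd1 to Smarcd2 differed by 0.90 on day 4 and by -0.06 on day 0. Between the core paralogs, Smarcc2 made up 13.8% and 14.1% of the pair in WT mESCs and between 21.3% and 22.6% in the other 6 libraries. The log2 ratio of Smarcc1 to Smarcc2 was therefore 2.62 in WT mESCs, and 1.86, 1.88 and 1.78 in CTCF-K20R mESCs, WT EBs and CTCF-K20R EBs.

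Smarca2 stayed a small part of the ATPase pair, at 0.546% and 0.514% in WT mESCs, 0.264% and 0.364% in CTCF-K20R mESCs, 3.62% and 3.46% in WT EBs and 2.38% and 3.01% in CTCF-K20R EBs. Smarca4 was therefore the main ATPase transcript in all 8 libraries. Arid1b made up 9.39% and 9.08% of the ARID1 pair in WT mESCs and 9.61% and 9.64% in WT EBs, but 7.69% and 8.06% in CTCF-K20R mESCs and 7.18% and 6.93% in CTCF-K20R EBs. Its share was lower in each CTCF-K20R library than in each WT library.

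**Figure D3:**
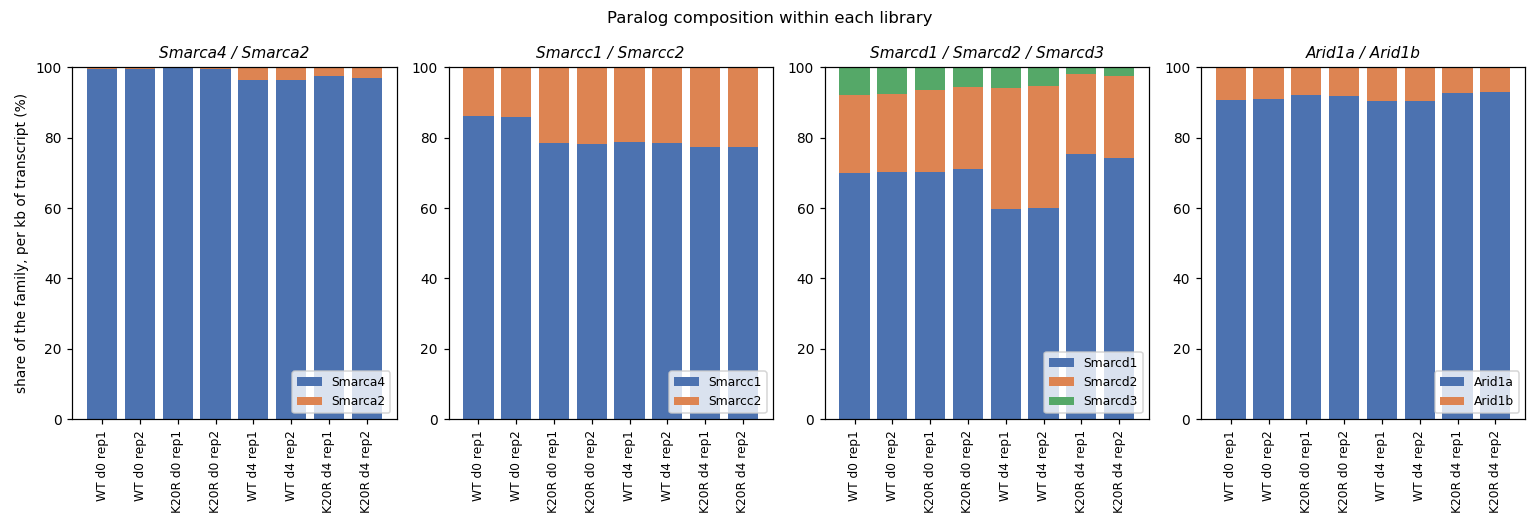
Share of each paralog in its family (y axis, percent per kilobase of transcript, from 0 to 100) in each of the 8 libraries (x axis). Smarcd1 takes 59.9% and 60.0% of the BAF60 family in WT EBs and 75.4% and 74.3% in CTCF-K20R EBs, and Smarcc2 is smallest in WT mESCs at 13.8% and 14.1%.

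The remaining genes of the complex came from a list of 21, of which 20 were in the table and passed the filter. In EBs, 3 of them were called higher and 3 lower in CTCF-K20R, against 21.5% and 18.6% of all genes, and in mESCs 2 were higher and 1 lower, against 7.83% and 7.57%. Their medians of 0.05 and 0.03 on the log2 scale were near those of all genes (0.01 and -0.01). By form of the complex, 1 of the 8 subunits listed as shared between forms, not all of them by every form, was called lower in EBs. Of the 5 other canonical BAF subunits 1 was called lower, and of the 4 PBAF subunits 2 were called higher. Of the 3 non-canonical BAF subunits 1 was higher and 1 lower.

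Dpf3 (BAF45c), a reader of acetylated and methylated histones known from heart and muscle, had 227 and 236 normalized counts in WT EBs against 5.70 and 3.68 in CTCF-K20R EBs. The mutant values were just above the limit of detection of 3.45 and 3.26. On day 0 it had 12.7 and 10.6 in WT and 9.84 and 6.53 in CTCF-K20R mESCs. Its log2 fold change was -5.38 ± 0.51 (SE) on day 4, with a limma adjusted p of 0.000946, and its size depends on the value added before the logarithm. It was the only one of the 20 past 2-fold in EBs with a call.

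Bcl11b, a zinc finger subunit best known from T cells, had 58.4 and 71.9 normalized counts in WT mESCs and 17.0 and 8.66 in CTCF-K20R mESCs. Its log2 fold change was -2.33 ± 0.43 (SE) with a limma adjusted p of 0.0233. In EBs it had 104 and 98.3 in WT and 220 and 195 in CTCF-K20R, at 1.02, which did not pass. The day 0 call was lost without the second CTCF-K20R mESC library (-1.87 and adjusted p = 0.0508) and without either CTCF-K20R EB library (0.132 and 0.131), where no gene was called on that day, as well as with the day 0 libraries alone (0.127) and without a filter on low values (0.0693), over a range of 0.000744 to 0.132.

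Of the other calls, Arid2 and Brd7 belong to PBAF, and Brd9 and Bicral (Gltscr1l in the table) to non-canonical BAF. Smarce1 (BAF57) was listed as shared, though not every form holds it. None of these was called past 2-fold, nor was Actb, the actin of the complex. All were thus described outside the 2-fold rule, and Brd7, Brd9, Smarce1 and Actb after their values were seen. Arid2 had 3953 and 3969 normalized counts in WT EBs against 6131 and 6601 in CTCF-K20R EBs, and Bicral had 362 and 352 in WT EBs and 618 and 607 in CTCF-K20R EBs. Their log2 fold changes were 0.68 ± 0.07 and 0.78 ± 0.07 (SE), with limma adjusted p of 0.00122 and 0.000676. Smarce1 had 5964 and 6104 in WT EBs against 4004 and 4489 in CTCF-K20R EBs. Brd9 had 914 and 910 in WT EBs against 659 and 625 in CTCF-K20R EBs, and both stood at -0.51 on the log2 scale. Brd7 was higher on both days, at 0.75 in mESCs and 0.58 in EBs, and its 20 nearest genes on chromosome 8 had medians of 0.54 and 0.30. Elsewhere on chromosome 8, the 20 genes nearest Ctcf had medians of 0.46 and 0.59, and those nearest Chd9 0.53 and 0.26. For the 20 genes nearest Smarca5, a remodeller ATPase of that chromosome not named by the rule, they were 0.41 and 0.53. The part of these neighbours in the result for Brd7 was not tested. Actb, a common loading control, was higher by 0.39 on the log2 scale in CTCF-K20R mESCs. Without a CTCF-K20R EB library, the day 4 calls of Brd9 (adjusted p = 0.0531 and 0.0639, in a range of 9.06e-05 to 0.0639) and, without the first, of Brd7 (0.0593, in a range of 0.000112 to 0.0593) were lost.

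**Figure D4:**
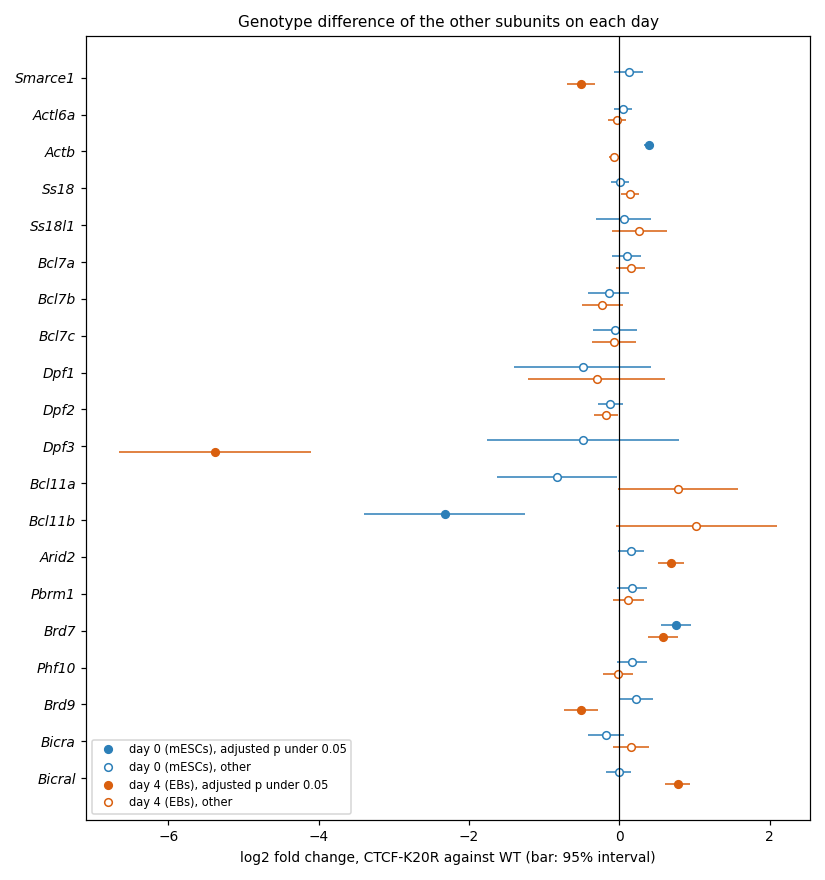
Log2 fold change of CTCF-K20R against WT (x axis, bars for 95% intervals) of the 20 other subunits on day 0 (blue) and day 4 (orange), with filled points for a limma adjusted p under 0.05. Dpf3 stands apart on day 4 at -5.38 and Bcl11b on day 0 at -2.33, while most of the others lie near 0.

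Finally, genes with the most similar course over the 6 samples were looked up for the members whose group means spanned at least 1 on the log2 scale, which were Smarca2 (3.01) and Smarcd3 (2.26). Among 4205 genes with such a span and a mean of at least 100 normalized counts, Pearson's r of log2 values with Smarca2 was highest for Spock2 (0.999), Pink1 (0.998) and Klhl24 (0.998). Spock2 had group means of 295 in WT mESCs, 211 in CTCF-K20R mESCs, 998 in WT EBs and 871 in CTCF-K20R EBs. With Smarcd3 it was highest for Phactr2 (0.996), Gpr56 (0.993) and Ptpn6 (0.989), and Phactr2 had 275, 215, 184 and 107 in the same order. With 6 samples from 4 groups, such values describe a shared order of group levels and carry no test.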

How the data were processed

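RNA-seq of WT and CTCF-K20R mESCs and EBs was analysed from 1 table of 8 value columns, each matched to a sample by name. The authors trimmed the reads (Trim Galore), quantified transcripts against mm10 (Salmon), collapsed them to genes (tximport) and applied DESeq2 normalization. What they deposited is thus a signal, the normalized count of a gene in a library. Its scaling varies from gene to gene within a library, which prevents recovery of whole reads, and count tests were not applied. The test was limma 3.58.1 (R 4.3.3, lmFit and eBayes with trend) on log2 of the value plus a pseudocount of 1, for genes whose mean over the libraries reached 10, with 1 mean per group (4 groups), Benjamini-Hochberg adjustment, and each WT pair averaged (6 samples, 2 residual degrees of freedom). Fold changes are on this scale, which understates those of low genes. A gene was called at an adjusted p under 0.05. The fit was also run on simulated data, as a check of its working. There the CTCF-K20R libraries were drawn as independent samples, which is not known of the real ones. Python 3.11.15, pandas 2.3.3, numpy 2.4.6 and matplotlib 3.10.9 were used for the remainder.

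The members and the gene lists were chosen with earlier results of these data known. Named genes were the members, Ctcf, and the other subunits and remodeller ATPases called past 2-fold. Arid2, Bicral, Brd7, Brd9, Smarce1 and Actb were named besides these, which is more than the 4 further genes planned. The 3 genes most like each member that spanned at least 1 on the log2 scale were also named. No pairing of the libraries by replicate number was seen (correlations of deviations between -0.0443 and 0.0212). The near-identical WT pairs could hardly show one, and between the CTCF-K20R pairs of the 2 days the correlation was -0.0443. Alternatives were other pseudocounts (0.1 and 10), filters (none and 100), scalings (quantile, equal totals and TMM, a trimmed mean of log ratios), separate WT libraries, a replicate block, fits of 1 day, and leaving out each library.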

Additional observations from a re-analysis of the deposited data

Results flagged for a closer look

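For 14 genes named here the genotype difference on day 4 differed from that on day 0, by the limma interaction test at an adjusted p under 0.05. Some of them were named because of this test or after their values were seen, so their number is no result. Over all genes tested, 14.7% were called higher and 12% lower. Of the 17 other remodeller ATPases, 6 were called higher and 2 lower, and Atrx, Chd4, Chd6 and Ino80 among them were not named by the rule. The values are the log2 fold change of CTCF-K20R against WT on day 4 minus that on day 0. Among the members these were 0.7345 for Smarcd1, 0.3424 for Arid1a and -0.5875 for Smarcc2. Among the other subunits they were 3.349 for Bcl11b, 0.7825 for Bicral, 0.5284 for Arid2, -4.894 for Dpf3, -0.7275 for Brd9, -0.6317 for Smarce1 and -0.462 for Actb. Among the other remodeller ATPases they were 2.562 for Chd9, 1.005 for Hells, -1.22 for Chd7 and -1.375 for Chd3. The calls of Arid1a, Smarcc2, Arid2, Bcl11b, Brd9 and Chd3 were lost without either CTCF-K20R EB library, that of Dpf3 without the second (adjusted p = 0.0536), and that of Smarce1 without the first CTCF-K20R mESC library (0.0501). That of Chd3 was also lost without either CTCF-K20R mESC library (0.0991 and 0.0684). The WT groups counted as 1 sample a day, and the same samples enter both days' differences and their interaction.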

How the results depend on the processing

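Of the log2 fold changes of named genes under the alternatives, 1232 kept their direction and their side of the threshold, 85 lost a call, 51 gained one and 11 changed sign, all 11 of them small and without a call: Smarca4 (-0.0069 on day 4 and -0.068 for the interaction) and Smarcc1 (-0.11 and -0.050) under quantile normalization, Smarcc1 (-0.073 and -0.0054) and the interaction of Smarca4 (-0.068) at equal totals, Arid1a on day 4 without the second WT EB library (0.0017, in a range of -0.011 to 0.0017 without a library), and Bicral on day 0 with TMM factors (0.0018), without the second WT (0.0041) and without the first CTCF-K20R mESC library (0.019, in a range of -0.032 to 0.019). With all 8 libraries as separate samples, members called went to 7 on day 4, 9 on day 0 and 6 for the interaction, and other subunits to 15 and 10 on day 4 and day 0, while calls among all 15767 genes rose from 6329 to 10323, from 2429 to 7562 and from 4200 to 8915. With a replicate block as well, these counts were 7, 7, 6, 15 and 8, although no pairing by replicate number was seen (correlations of -0.0443 to 0.0212). Averaging near-identical WT libraries leaves fewer samples by construction. With the day 0 libraries alone 1 member and 1 other subunit were called. Quantile normalization called 12 other subunits on day 4, and it or no filter left 0 members past 2-fold there. In WT, 1 member was past 2-fold with a mean of at least 100, as Smarca2 was not tested, and 1 at equal totals, where the median of all genes was 0.12 in place of 0.01. Leaving out each library gave 2 to 4 members called on day 4, 0 to 5 on day 0, 1 to 3 for the interaction, 5 to 9 for the CTCF-K20R time course and 0 to 1 past 2-fold on day 4, and for other subunits 4 to 7, 0 to 3 and 3 to 8 for the first 3 comparisons. The 0 members and 0 other subunits called on day 0 by limma came without a CTCF-K20R EB library, where 0 of all genes were called, and 6 members and 4 other subunits had an unadjusted p under 0.05. The difference in the log2 ratio of Smarcc1 to Smarcc2 was -0.76 on day 0 with a pseudocount of 10 and -0.78 to -0.75 without a library, and -0.11 to -0.092 on day 4. The causes of these changes were not tested, and depth limits the values near the limit of detection, such as those of Dpf3 and Bcl11b.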

Other observations

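The catalytic subunits of other chromatin remodellers (17 genes of the ISWI, CHD, INO80 and related families) were read from the same fit. In CTCF-K20R EBs, 7 were called higher and 3 lower, against 21.5% and 18.6% of all genes tested, and in mESCs 4 higher and 2 lower, against 7.83% and 7.57%. Chd9 had 595 and 604 normalized counts in WT EBs against 4775 and 5120 in CTCF-K20R EBs, against 1475 and 1467 in WT mESCs and 2024 and 2082 in CTCF-K20R mESCs. It fell from mESCs to EBs in WT and stood higher in CTCF-K20R EBs than in any other group. Its log2 fold change on day 4 was 3.04 ± 0.06 (SE), with a limma adjusted p of 1.67e-05. The 20 genes nearest to it on chromosome 8 had medians of 0.53 on day 0 and 0.26 on day 4. Hells, a remodeller needed for DNA methylation, had 4426 and 4403 in WT EBs and 9879 and 9285 in CTCF-K20R EBs, at 1.12 ± 0.05 (SE) and an adjusted p of 0.000109. Both kept their day 4 calls in each of 18 alternatives, with adjusted p of at most 0.0146 and 0.0158.

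Chd7 and Chd8 are CHD remodellers known from human developmental disorders. Chd8 had 3847 and 3911 normalized counts in WT mESCs and 1762 and 2041 in CTCF-K20R mESCs, at -1.03 ± 0.12 (SE) and a limma adjusted p of 0.00592. In EBs it had 3070 and 3035 in WT and 1764 and 2020 in CTCF-K20R, at -0.69 and a limma adjusted p of 0.00685. Over other settings that adjusted p ranged from 0.000194 to 0.0773. The 20 genes nearest Chd8 on chromosome 14 had medians of -0.94 on day 0 and -0.73 on day 4, and their part in these values was not tested. Chd7 was higher in CTCF-K20R mESCs, with 905 and 940 against 538 and 538 in WT, and lower in CTCF-K20R EBs, with 1745 and 1867 against 2479 and 2430. The day 0 calls of both were lost without either CTCF-K20R EB library, with adjusted p between 0.0602 and 0.0765, as were those of all genes on that day.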
